A study of Mus musculus with 6 samples.

Results

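The matrix metalloproteinases, the ADAMTS proteases, the ADAMTS-like proteins and the tissue inhibitors of metalloproteinases (TIMPs) were followed in mouse uterus. Members were the protein-coding genes named Mmp, Timp 1 to 4, Adamts or Adamtsl with a number, and the rule found 47 of the 26018 genes listed. They were 19 Mmp, 4 Timp, 19 Adamts and 5 Adamtsl genes. The control group held 3 female mice with the genotype Tcf21f/f, in which Tcf21 is floxed, and the conditional knockout (cKO) group held 3 Tcf21d/d females, in which it is deleted. All were 6 weeks old, were matched for body weight and had received no treatment. Each library was made from total RNA of the uterus of 1 animal. Which Cre line made the deletion, in which cells it acted and which part of Tcf21 it removed were not given in the sources used here. The study asked which genes act downstream of TCF21, a mesenchymal transcription factor of the basic helix-loop-helix class, in the developing uterus.

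Matrix metalloproteinases are zinc-dependent enzymes that cut collagens, elastin and other matrix proteins. Most are secreted as inactive precursors and a few are anchored in the cell membrane. TIMPs block their active sites, and the membrane enzyme MMP14 together with TIMP2 activates the MMP2 precursor. ADAMTS proteases cut proteoglycans such as versican, process procollagens or cut von Willebrand factor, and ADAMTS-like proteins share their ancillary domains without the protease. In the uterus these families are known for the matrix turnover of growth, the cycle, implantation and the return to size after birth.

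Among the 44 members that passed the filter on low reads, 1 was lower in cKO uteri and 0 were higher at an adjusted p under 0.05 with limma. That is 2.27% of the members, where limma called 1.16% of all genes tested, 0.889% lower. The gene that fell was Mmp17, which encodes a metalloproteinase held to the membrane by a lipid anchor. Its mean was 5.43-fold lower in cKO. Adamts8 was 4.73-fold lower and Timp1 1.64-fold higher by their means, without overlap between the groups, but neither passed the limma test. With Mmp17, the groups did not overlap for 6.82% of the members, beside 19.6% of all genes tested. Mmp14, Timp2, Adamts2 and Adamts10, among the most abundant members, had log2 fold changes between -0.35 and 0.33 and did not pass. Mmp2, Adamtsl5 and Mmp12, also among the most abundant per kb of exon, had larger ones and did not pass either. Theirs were 0.43 ± 0.24, 0.66 ± 0.33 and 0.96 ± 1.47 (SE).

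The libraries held 14584450 to 16579573 reads on genes, so depth was alike in both groups. Tcf21 had 341, 152 and 144 normalised reads in controls 1 to 3, against 26.0, 0 and 0 in cKO 1 to 3, where 0 reads allow up to 2.93 and 3.31. Its log2 fold change was -6.03 ± 1.25 (SE; limma adjusted p = 0.0765), which missed the threshold, although all 3 cKO libraries lay below all controls as their labels say. It was -4.56 with edgeR, -4.61 with DESeq2 and -4.45 with a pseudocount of 5 (limma adjusted p = 0.0301). Leaving out 1 library gave limma adjusted p from 0.00583, without cKO 1, to 0.359. Of 10 smooth muscle markers 9 fell in cKO, while Des had a positive log2 fold change and did not pass. The list took 1.54 ± 0.28% of reads in controls against 0.57 ± 0.09% in cKO (SD, n = 3). A list of 10 skeletal muscle genes took 2.71 to 5.40% of control reads and 5.55 to 8.37% of cKO reads. Of its 9 tested genes limma called 0, with 7 at an unadjusted p under 0.05, edgeR 0 and DESeq2 6 higher. Liver genes took 1.41% of the reads of control 1 and at most 0.0102% of any other library. A list of 10 uterine epithelium genes took 0.00652 to 0.0524% of control reads, most in control 1, and 0.00515 to 0.00981% of cKO reads. Of its 8 tested genes 1 had a positive log2 fold change, and 2 had an unadjusted limma p under 0.05. Limma and edgeR called 0, and DESeq2 called 2 lower of the 6 with an adjusted p. Foxa2, a gland factor, was at 0 reads in control 3 and all 3 cKO libraries. Epcam had 155, 284 and 8.90 normalised reads in controls and 21.4, 8.78 and 2.21 in cKO. In bulk tissue, fewer cells of a type and less RNA per cell cannot be told apart.

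The unit throughout is the normalised read count, a gene's reads divided by 1 size factor per library, in which 1 read was worth 0.889 to 1.22. Of the 47 members, 43 were detected in all 6 libraries. Mean levels exceeded 1000 normalised reads for 11 members, lay between 20 and 1000 for 29 and under 20 for 7. Mmp7, Mmp24 and Adamts13 did not pass the filter on low reads and were not tested. Mmp1a, Mmp1b, Mmp20 and Mmp21 were not analysed here.

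Of the Mmp genes analysed, 7 lie in one cluster on chromosome 9 (7272514 to 7699585, GRCm38): Mmp13, Mmp12, Mmp3, Mmp10, Mmp8, Mmp27 and Mmp7. Mmp1b, not analysed here, also has exons in this span. The 7 named encode secreted enzymes. The AP-1 site close before the start of several of them is a textbook element of their inducible transcription. The letters TGANTCA, which read the same on both strands, stood in the 250 bases before the start in 5 of 35 promoter entries of members, or 14.3%, against 6.75% of all 32851 promoters of the RefSeq table (GRCm38.p6). All 5 belong to this cluster. They are shown because the cluster holds Mmp12, the tested member with the largest standard error, and each line gives the 70 bases before the start of the RefSeq entry, 5′ to 3′, with the TGANTCA match in capitals. Mmp12 and Mmp7 have 2 entries each, of which only the 1 with the match is shown. The start of the entry shown for Mmp12 lies 2993 bases inside the gene's span as deposited. For Mmp10 it lies 10 bases before the deposited gene start. The other entries shown begin at the deposited start.

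Mmp13 (chr9:7272444-7272513, plus strand): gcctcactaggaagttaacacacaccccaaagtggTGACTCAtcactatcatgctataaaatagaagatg
Mmp12 (chr9:7347304-7347373, plus strand): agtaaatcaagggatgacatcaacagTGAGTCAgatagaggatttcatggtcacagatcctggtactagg
Mmp3 (chr9:7445752-7445821, plus strand): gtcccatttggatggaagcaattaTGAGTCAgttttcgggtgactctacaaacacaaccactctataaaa
Mmp10 (chr9:7502272-7502341, plus strand): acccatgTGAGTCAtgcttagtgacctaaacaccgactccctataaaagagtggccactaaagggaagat
Mmp7 (chr9:7692020-7692089, plus strand): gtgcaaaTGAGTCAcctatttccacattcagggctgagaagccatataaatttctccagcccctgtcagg

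In Mmp13 the match begins 35 bases before the entry's start, in Mmp12 44, in Mmp3 46, and in Mmp10 and Mmp7 63. A match is a description of letters only. Of the 6 cluster genes that were tested, 0 passed with limma or edgeR and 0 of the 3 that had a DESeq2 adjusted p passed with DESeq2. None had an unadjusted limma p under 0.05, and their log2 fold changes ran from -1.64 to 1.43 with standard errors of 0.33 to 1.47. The E-box letters CAGCTG, of the kind that basic helix-loop-helix factors bind and that read the same on both strands, stood in 9 of the 35 member entries (25.7%) and in 13.0% of all promoters. CATCTG, searched on both strands, stood in 3 of 35 (8.57%) against 14.4% of all, and the CArG box of smooth muscle genes in 0 of 35 against 1.47%. No match of one motif overlapped a match of another in these entries. The member entries were richer in G and C, with a median of 62.8% against 52.4% of all promoters, and 15 members, Mmp17, Adamts8, Mmp2 and Mmp9 among them, had no entry.

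Levels per kilobase of exon place the members on one scale. By the mean over all 6 libraries Timp2, Timp1, Mmp14 and Mmp2 led. Their control means were 1926, 1146, 1466 and 1201 normalised reads per kb and their cKO means 1474, 1883, 1446 and 1643, and the 4 genes overlapped across libraries. Next came Mmp12, Adamts2, Adamts10, Adamtsl5, Mmp3 and Mmp19. The place of Mmp12 rests on control 2, since its mean of 739.9 per kb was 376 without that library, below Adamts2. The places of Timp2 and Mmp19 rest on control 2 as well. Without it Timp2 had 1535 per kb, below Timp1 (1650) and Mmp14 (1574). Mmp19 had 242, below Mmp23 (280) and Adamtsl4 (262). The place of Adamts10 rests on the deposited length of 5453 bases. With the 8254 exon bases of GENCODE vM21 its mean was 234 in place of 354 per kb. That lay below Adamtsl5, Mmp3, Mmp19, Adamtsl4 and Mmp23. The activator MMP14, its partner TIMP2 and their substrate MMP2 were thus all among the 4 most abundant RNAs of the families per kb. Mmp24 had the lowest level, 0.635 per kb in controls and 0.0661 in cKO, and Adamts13 and Adamts18 came next.

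**Figure D1:**
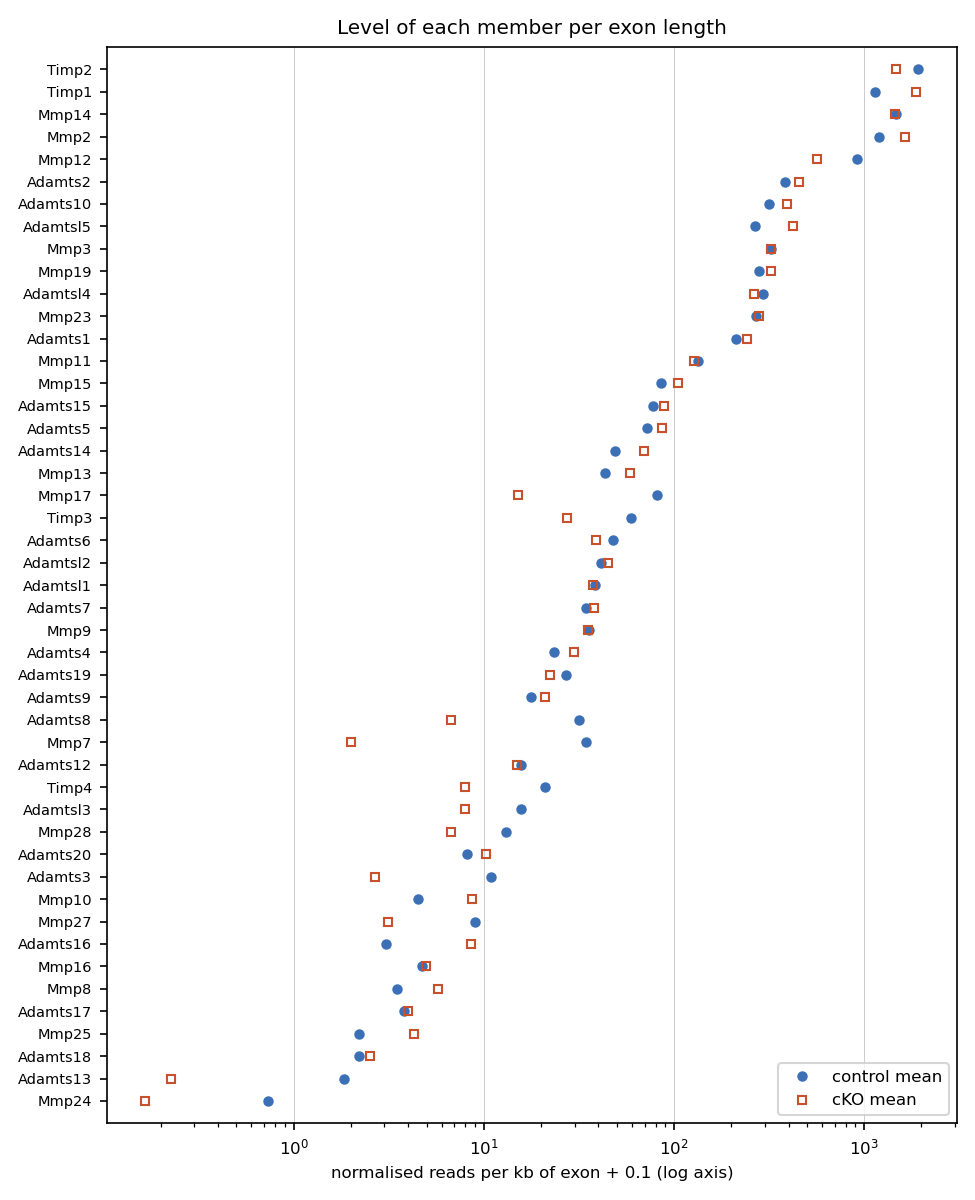
Mean level of each of the 47 members in control (filled circles) and cKO (open squares) libraries, in normalised reads per kb of exon with 0.1 added, on a log axis, ordered by the mean of all 6 libraries. Timp2, Timp1, Mmp14 and Mmp2 stand at the top, and of the members above 10 per kb in both groups Mmp17 shows the widest gap, 81.1 against 14.9.

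Mmp17 (ENSMUSG00000029436) lies on chromosome 5 at 129584169 to 129611099 on the plus strand (GRCm38), with 6619 exon bases. Control uteri had 504, 546 and 562 normalised reads and cKO uteri had 73.4, 81.9 and 141. The 3 controls sat close together and the highest cKO animal lay far below the lowest control. Means were 537 ± 30.2 and 98.9 ± 37.1 (SD, n = 3), and the log2 fold change was -2.49 ± 0.27 (SE; 95% confidence interval -3.10 to -1.88) with a limma Benjamini-Hochberg adjusted p of 0.00396. The edgeR quasi-likelihood test on whole reads gave an adjusted p of 0.00664, and the authors' deposited table lists -2.45 with an adjusted p of 1.27e-12. Leaving out any 1 library gave -2.77 to -2.31 with limma adjusted p of 0.00356 to 0.0312. Mmp17 moved beside the smooth muscle list, whose summed level was 215633 to 250384 normalised reads in controls and 76292 to 104407 in cKO with 0 of the 10 markers at 0, and the part of that list in the result was not tested. Exons of Mmp17 share stretches of up to 148 bases at 95% identity or more with 10 other genes, so that some reads could be split between them.

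Read against all genes, 1 of 44 members called is 2.27%, where limma called 1.16% of 16314 genes in either direction, 0.276% higher and 0.889% lower. At an unadjusted p under 0.05 stood 5 members (11.4%), 2 higher and 3 lower, against 13.7% of all genes tested. Values of the groups did not overlap for 3 members, Timp1 above all controls and Mmp17 and Adamts8 below, which is 6.82% of the members against 19.6% of all genes (9.04% above and 10.5% below). The members' median log2 fold change was 0.19 (interquartile range -0.27 to 0.41), beside 0.0020 over all genes tested, and 28 of 44 were above 0. It was 0.020 without control 1. DESeq2 on whole reads gave 41 members an adjusted p and called 1 higher, Timp1, and 2 lower, Mmp17 and Adamts8, where it called 5.7% of 15240 genes, 1.87% higher and 3.83% lower. With edgeR Mmp17 alone was called, beside 0.926% of all genes in either direction and 0.736% lower. In the authors' deposited table, 2 members had an adjusted p under 0.05, Mmp17 and Adamts8, beside 3.21% of the genes listed.

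**Figure D2:**
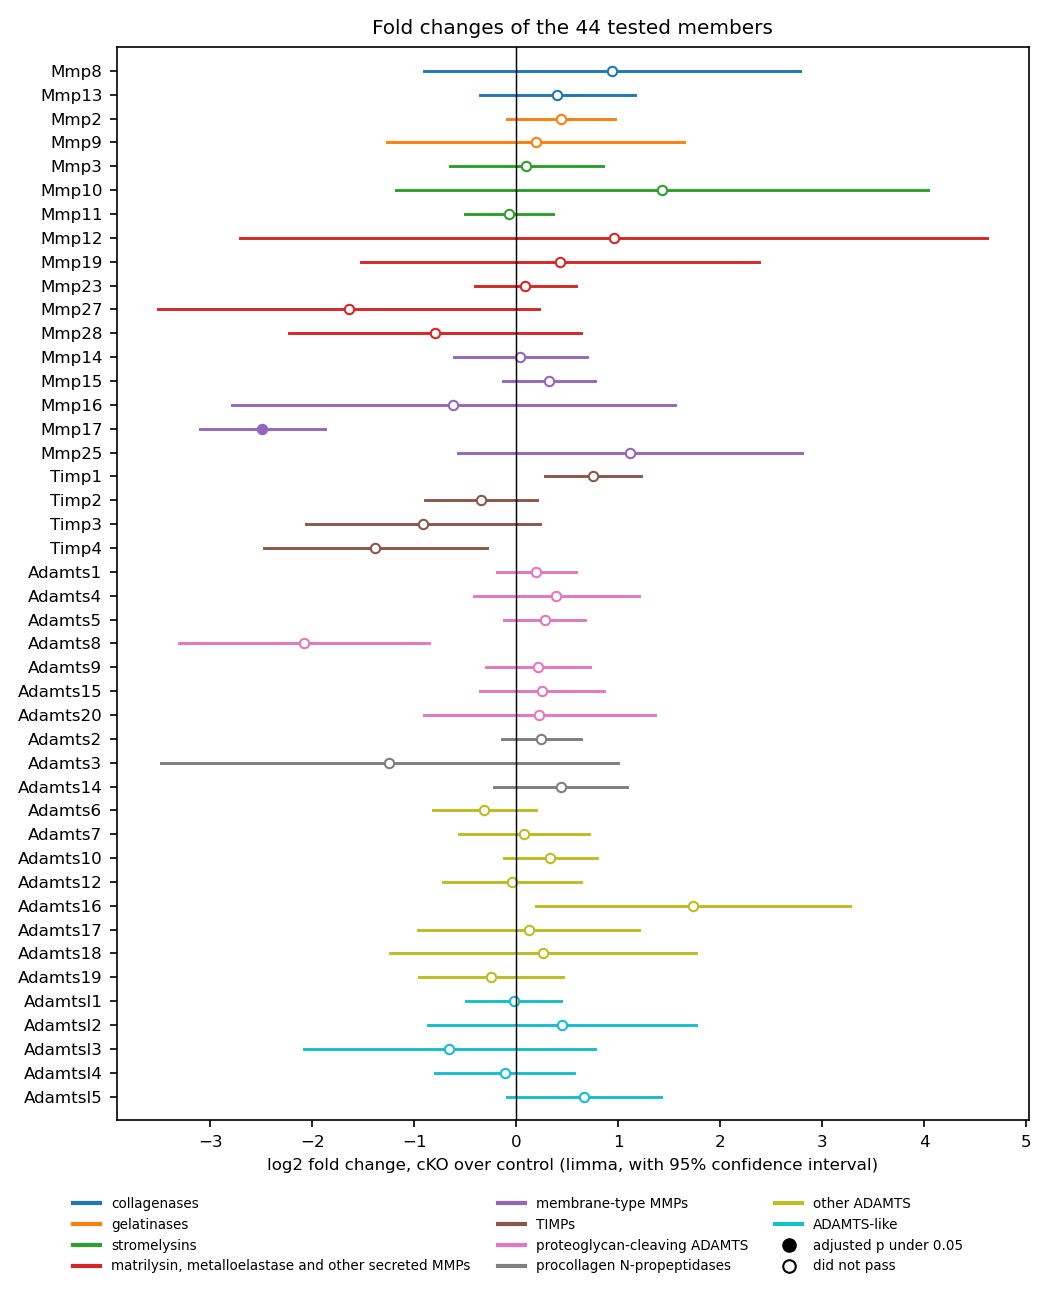
Log2 fold change of each of the 44 tested members, cKO over control, from limma, with bars for the 95% confidence interval, coloured by family group. The filled point, Mmp17 at -2.49, passed an adjusted p of 0.05, and open points did not. Intervals of Timp1, Timp4, Adamts8 and Adamts16 also leave out 0 before adjustment.

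The precision differed widely between members. For 19 of the 44 the 95% interval lay within 1 of 0 on the log2 scale, so a change of more than 2-fold lay outside it. For 20 it included 0 and reached beyond 1 on at least one side, so that a 2-fold change in at least one direction lay inside it. Standard errors ran from 0.17 for Adamts2 to 1.47 for Mmp12, with a median of 0.33 beside 0.27 over all genes.

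Among the other membrane-type enzymes, Mmp14, the activator of MMP2, had 10359, 5151 and 10711 normalised reads in controls and 9923, 8793 and 7130.0 in cKO. Control 2 was the lowest animal and all cKO values lay inside the control range. The log2 fold change of 0.04 had a 95% interval of -0.61 to 0.70, and its sign turned with edgeR (-0.028) and DESeq2 (-0.021). Mmp15, a transmembrane relative, had a control mean of 462 ± 110.1 and a cKO mean of 568 ± 35.5 (0.32 ± 0.20). Mmp25, known from leukocytes, had at most 32.5 normalised reads in any library, with a log2 fold change of 1.11 ± 0.75. Mmp16 varied from 3.90 in cKO 2 to 75.3 in cKO 1.

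The gelatinases MMP2 and MMP9 cut denatured collagen and basement membrane. Mmp2 had 3494, 5017 and 3638 normalised reads in controls and 5086, 4265 and 7264 in cKO. The groups overlapped through control 2 and cKO 2, and the log2 fold change was 0.43 ± 0.24 (limma adjusted p = 0.468). Its share of the summed Mmp level per kb was 22.3 to 27.2% in controls and 30.0 to 36.9% in cKO, which did not overlap. Without Mmp12 in the sum it was 25.8 to 36.0% and 32.3 to 43.3%, and the groups overlapped through control 2. These shares were not tested. Mmp9, an enzyme of neutrophils and macrophages, had 113, 223 and 40.0 normalised reads in controls and 130.1, 65.3 and 178 in cKO. Its log2 fold change of 0.19 ± 0.63 turned sign with edgeR (-0.014), DESeq2 (-0.011) and without control 3 (-0.47) or cKO 3 (-0.12).

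**Figure D3:**
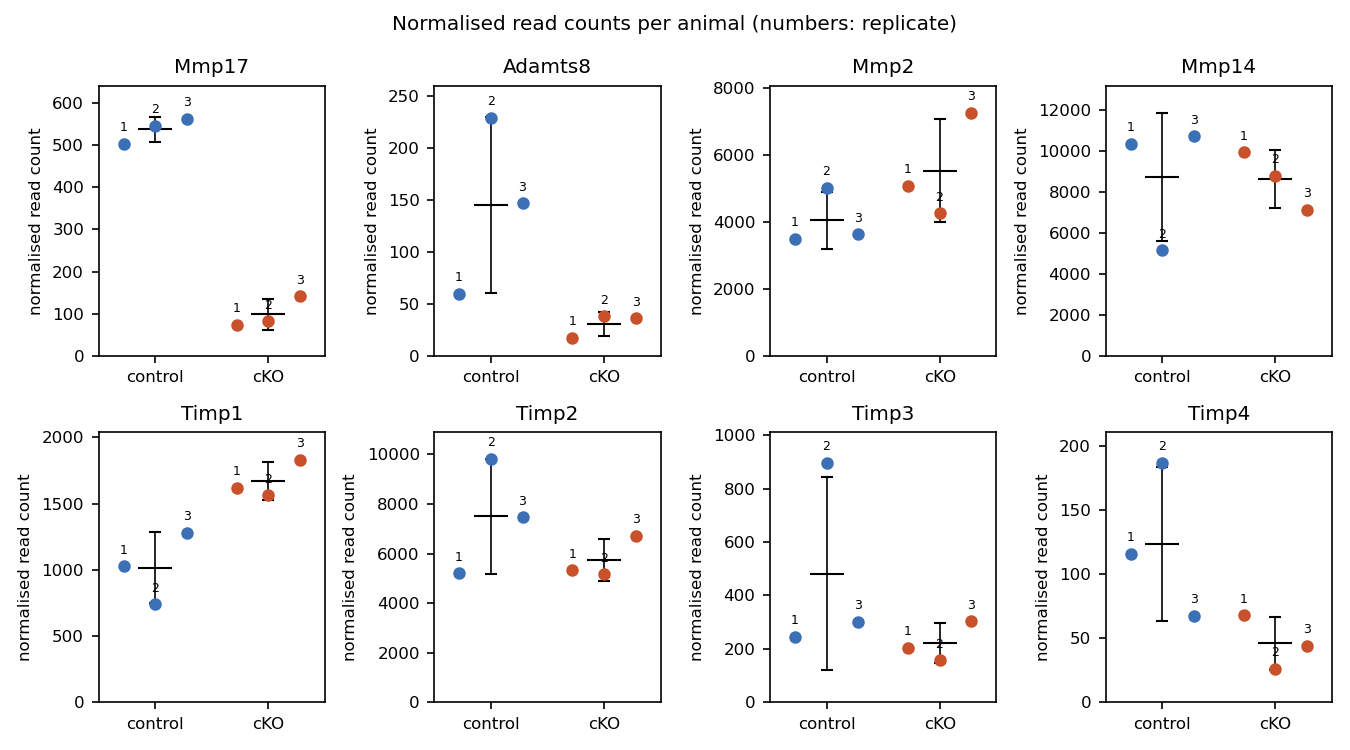
Normalised read counts of Mmp17, Adamts8, Mmp2, Mmp14 and the 4 Timp genes in each animal, with the replicate number at each point and a line and bar for the group mean and SD. Mmp17 and Adamts8 are lower and Timp1 is higher in all 3 cKO animals than in any control, while Mmp2, Mmp14, Timp2, Timp3 and Timp4 overlap.

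The collagenases Mmp13 and Mmp8 cut fibrillar collagen, and Mmp1a and Mmp1b, the other members of that group, were not analysed here. Mmp13 had 146, 106 and 93.4 normalised reads in controls and 127, 115 and 229.8 in cKO, where only cKO 3 lay above the controls. Mmp8, a neutrophil granule enzyme, had at most 15.9 in any library. Neither passed the test, with log2 fold changes of 0.40 ± 0.34 and 0.94 ± 0.82. Of the stromelysins, which cut proteoglycans and activate other precursors, Mmp3 had means of 581 ± 295 and 585 ± 128 and a log2 fold change of 0.10 ± 0.33. Mmp11, an enzyme of stromal cells, had 402, 336 and 375 in controls and 419, 333 and 312 in cKO, with a log2 fold change of -0.08 ± 0.19. The signs of both turned when single libraries were left out. Mmp10, also a stromelysin, had at most 24.3 normalised reads in any library.

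Some secreted enzymes were far higher in 1 animal than in the rest of its group. Mmp12, the macrophage metalloelastase, had 372, 18511 and 1028 normalised reads in controls and 3746, 2209.6 and 6260.5 in cKO. Control 2 held 49.8 times the level of control 1, and Mmp12 made up 38.2% of its summed Mmp level per kb. The log2 fold change of 0.96 ± 1.47 is a mean of logs, while the cKO mean was 1.63-fold lower than the control mean. It was -0.70 with edgeR and DESeq2, -0.23 without control 1 and 2.59 without control 2. Mmp19, an enzyme of vessels and myeloid cells among others, was high in the same control and in cKO 3, with 438, 2120.1 and 425 in controls and 631, 748 and 2036 in cKO. Opposite-strand exons of Gm47093 and Tmem198b cover 28.3% of its exon bases, and the sources used here do not say whether counting used strand. Beside them, the summed level of 10 macrophage genes was 20557, 37923 and 18191 in controls and 42916, 37731 and 46285 in cKO, with 9 of 10 higher on average and 0 at 0 reads. Of these 10 genes limma called 0, with 5 at an unadjusted p under 0.05, edgeR 0 and DESeq2 4 higher. The part of macrophage RNA in these levels was not tested.

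Mmp7, matrilysin of gland epithelium, had 106, 4.49 and 0 normalised reads in controls and 2.79, 0 and 3.31 in cKO. Control 1 alone stood out. Adamts13, the liver protease that cuts von Willebrand factor, had 25.6, 0 and 0 in controls and 1.86, 0 and 0 in cKO, so that it too was almost absent outside control 1. In this library the summed uterine epithelial list was highest, 9318 against 2591 and 911 in the other controls and 813 to 1512 in cKO. Not every epithelial marker peaked there, since Epcam, given above, was higher in control 2 than in control 1. In the same library, control 1, the liver list stood at 251618 against 22.3 to 1419.9 elsewhere. Mitochondrially encoded genes took 23.8% of its reads, against 8.10 to 13.7% in the other libraries. The part of these in the levels of Mmp7 and Adamts13 was not tested.

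**Figure D4:**
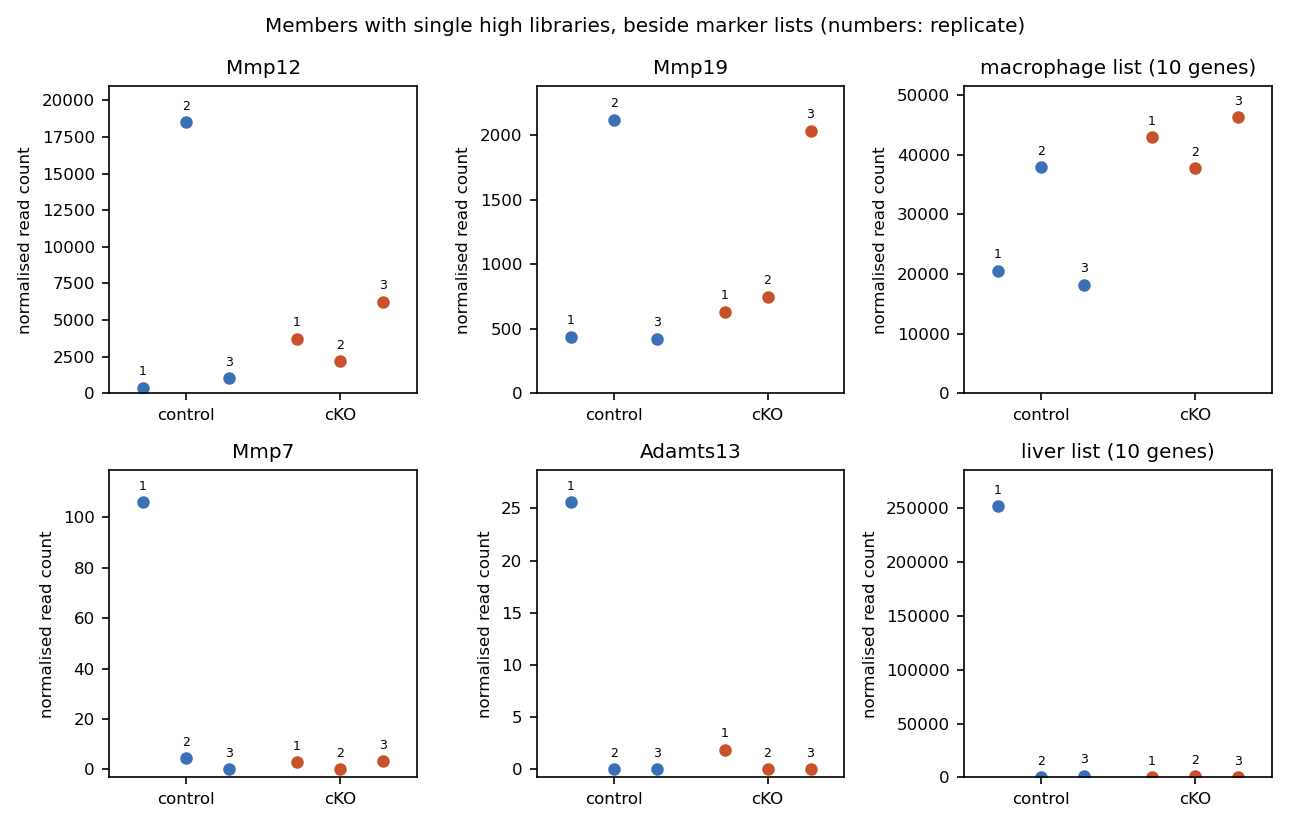
Normalised read counts by animal for Mmp12 and Mmp19 beside the summed macrophage list (top), and for Mmp7 and Adamts13 beside the summed liver list (bottom), with the replicate number at each point. Mmp12 peaks in control 2 at 18511 and Mmp7 and Adamts13 in control 1 at 106 and 25.6.

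Of the other secreted enzymes, Mmp23 had means of 628 ± 184 and 652 ± 68.7 in control and cKO. Mmp28, an epithelial enzyme also called epilysin, had 17.1, 71.9 and 61.4 in controls and 17.7, 19.5 and 39.8 in cKO, which overlap through control 1. Mmp27 was low, with 25.6, 20.7 and 12.5 normalised reads in controls and 1.86, 12.7 and 5.52 in cKO. Its log2 fold change was -1.64 ± 0.83 (limma adjusted p = 0.430).

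The inhibitors had log2 fold changes of both signs, and 0 of 4 passed the limma test, with 2 at an unadjusted p under 0.05 (Timp1 and Timp4). Timp1, a secreted inhibitor with growth factor activity, had 1029, 742 and 1281 normalised reads in controls and 1621, 1564 and 1832 in cKO. All 3 cKO animals lay above all 3 controls. The log2 fold change was 0.75 ± 0.21 (SE; 95% interval 0.28 to 1.22), and the limma adjusted p of 0.153 missed the threshold, while DESeq2 gave 0.0490, and the authors' deposited table lists an adjusted p of 0.0574. Leaving out any 1 library kept it between 0.54 and 0.93, with limma adjusted p from 0.0558 to 0.503. The macrophage and skeletal muscle lists given above also had higher means in cKO, and their part in the level of Timp1 was not tested.

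Timp2, the partner of MMP14 and MMP2, had 5212, 9833 and 7467 normalised reads in controls and 5335, 5162 and 6732 in cKO. The values of cKO 1 and cKO 2 sat at the low end of the controls, and the log2 fold change was -0.35 ± 0.24 (limma adjusted p = 0.590). Timp3, which binds to the matrix and also inhibits ADAMTS proteases, had 246, 896 and 302 in controls and 204, 158 and 304 in cKO. Control 2 alone was high, and the log2 fold change of -0.92 ± 0.49 became -0.35 without it. Exons of Syn3 on the opposite strand cover 21.3% of the exon bases of Timp3. Timp4, known from heart and other muscle tissues, had 116, 187 and 67.6 in controls and 67.8, 26.3 and 44.2 in cKO, with a log2 fold change of -1.38 ± 0.48 (limma adjusted p = 0.249). The groups of Timp4 met at cKO 1 and control 3, with 67.8 and 67.6.

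Within the summed Timp level per kb, Timp1 took 45.5, 23.9 and 42.3% in controls and 56.5, 56.6 and 53.8% in cKO, while Timp2 took 52.5, 72.1 and 56.2% against 42.4, 42.6 and 45.0%. Per kb, Timp2 was thus the leading inhibitor RNA in each control and Timp1 in each cKO animal. Timp3 took at most 3.14% and Timp4 at most 0.906% in any library. These shares were described and not tested. They depend on the exon lengths, 888 bases for Timp1 and 3896 for Timp2. In normalised reads not divided by length, Timp2 exceeded Timp1 in every library.

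The proteoglycan-cleaving ADAMTS enzymes act on versican, aggrecan and related molecules. Of the 7 in this group 0 passed the limma test and 1, Adamts8, had an unadjusted p under 0.05. DESeq2 called Adamts8 alone and edgeR 0. Of the 7, 6 had a positive log2 fold change, between 0.20 and 0.39. Adamts8 (ENSMUSG00000031994; chromosome 9 at 30942562 to 30963838, plus strand) was the exception, with 59.7, 229 and 147 normalised reads in controls and 17.7, 38.0 and 36.5 in cKO. The groups did not overlap, although control 1 lay nearer to the cKO animals than to control 2. Means were 145 ± 84.7 and 30.7 ± 11.3 (SD, n = 3), and the log2 fold change was -2.08 ± 0.54 (limma adjusted p = 0.128). The edgeR adjusted p was 0.112, while DESeq2 gave 0.00211, as does the authors' deposited table, with a log2 fold change of -2.25. Without control 1 the log2 fold change was -2.62 (limma adjusted p = 0.0227), where 2.72% of all genes were called, 2.03% lower. Over all libraries left out in turn it ran from -2.62 to -1.65, with limma adjusted p up to 0.343. Exons of Gm29724 on the opposite strand cover 10.6% of its exon bases. Adamts8 was lower beside the smooth muscle list, whose part in the result was not tested.

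The other proteoglycan-cleaving members had small fold changes. Adamts1, whose loss impairs female fertility in mice, had 1013, 1348 and 1024 normalised reads in controls and 1135, 1342 and 1383 in cKO, with a log2 fold change of 0.20 ± 0.17 (95% interval -0.19 to 0.59). Adamts5, the main aggrecanase of mouse cartilage, had 714, 664 and 967 in controls and 949.6, 930.3 and 927 in cKO. The cKO animals were close to each other and inside the control range, and the log2 fold change was 0.28 ± 0.18. Adamts9, a versican-cutting enzyme, had means of 265 ± 21.7 and 313 ± 73.0. Adamts15 and Adamts4 had log2 fold changes of 0.25 ± 0.27 and 0.39 ± 0.36, and Adamts20 of 0.23 ± 0.50.

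The procollagen N-propeptidases trim new fibrillar collagen. Adamts2, the most abundant ADAMTS member per kb, had 3864, 3482 and 3355 normalised reads in controls and 4719, 3552 and 4470.5 in cKO. The groups overlapped through cKO 2, and the log2 fold change of 0.24 ± 0.17 had a 95% interval of -0.14 to 0.63. Adamts14 had means of 253 ± 22.1 and 361 ± 139.5 and overlapped as well. Adamts3, which also processes the lymphatic growth factor VEGF-C, had 57.3, 113 and 5.34 in controls and 15.8, 9.75 and 16.6 in cKO, so that the widest gap lay among the controls.

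Of the remaining ADAMTS genes, Adamts10, which binds fibrillin, had 1824, 1278 and 2064 normalised reads in controls and 2016, 2372 and 2012 in cKO, with a log2 fold change of 0.33 ± 0.20. Adamts16 had 40.2, 14.4 and 6.23 in controls and 46.5, 39.0 and 87.3 in cKO. Only cKO 2 lay within the control range, at its upper edge, and the log2 fold change of 1.73 ± 0.68 had a limma adjusted p of 0.308. Adamts6, also tied to fibrillin microfibrils, was lower on average, 371 ± 49.3 against 301 ± 68.8. Adamts7, Adamts12, Adamts17, Adamts18 and Adamts19 had log2 fold changes between -0.25 and 0.26.

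ADAMTS-like proteins bind fibrillin microfibrils and other matrix without cutting. Adamtsl5 had 817, 1268 and 1713 normalised reads in controls and 1268, 2434 and 2287 in cKO, with a log2 fold change of 0.66 ± 0.33 (limma adjusted p = 0.430). Adamtsl4, linked to the zonule fibres of the eye, had 746, 1513 and 1437 in controls and 807, 1277 and 1239 in cKO. For both genes control 1 and cKO 1 had the lowest value of their group. Of the summed Adamtsl level per kb, Adamtsl5 took 37.6 to 44.7% in controls and 48.9 to 56.4% in cKO, and Adamtsl4 38.6 to 51.6% and 33.3 to 35.0%. Shares of one sum are not independent of each other, and they were not tested. Adamtsl4 itself had a log2 fold change of -0.12 ± 0.30 (limma adjusted p = 0.908). Adamtsl1, Adamtsl2 and Adamtsl3 had log2 fold changes of -0.03 ± 0.21, 0.44 ± 0.56 and -0.66 ± 0.63.

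**Figure D5:**
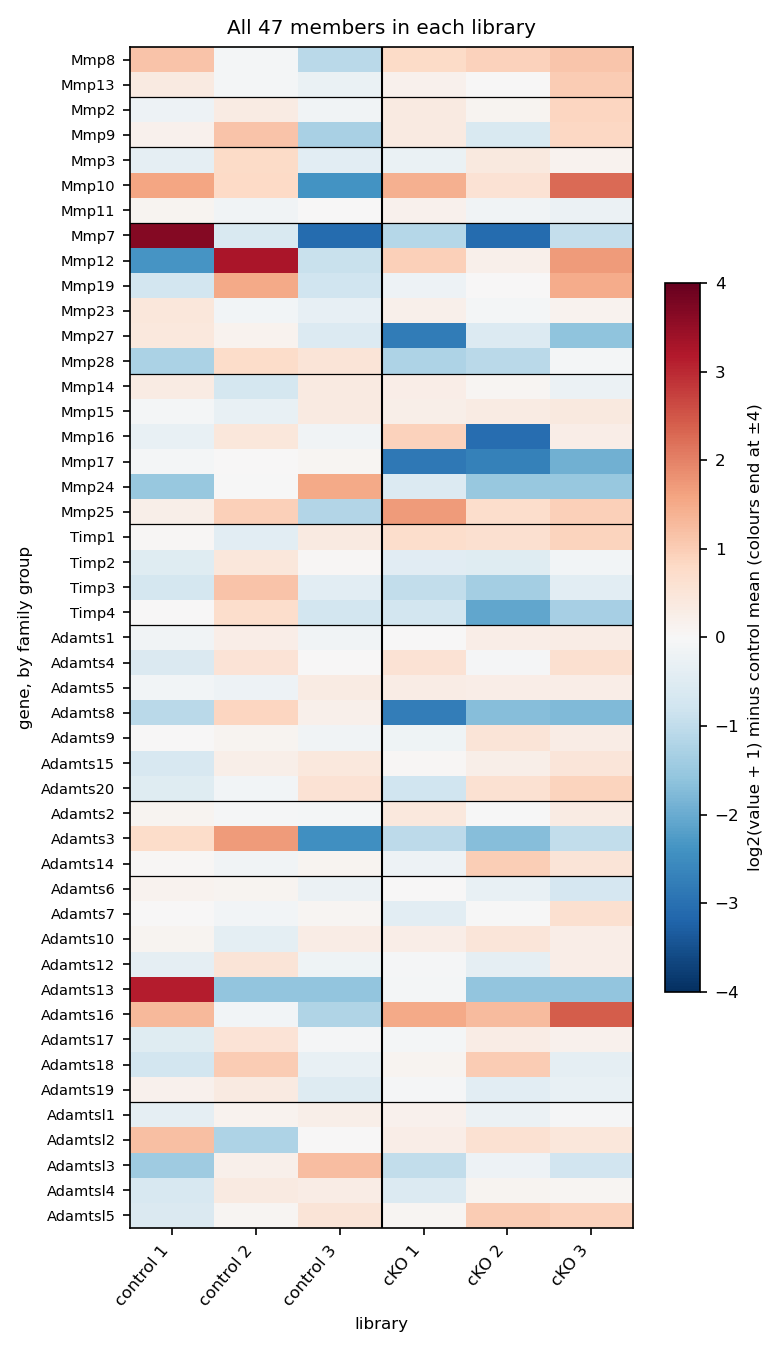
All 47 members (vertical axis, by family group) in each of the 6 libraries (horizontal axis), coloured by log2(value + 1) minus the mean of the controls. Mmp17 is blue in all 3 cKO libraries and near white in all controls, while Mmp12, Mmp7 and Adamts13 are red in 1 control library each.

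Summed per kb, the Mmp genes reached 4065, 6688 and 3970.5 normalised reads in controls and 4802, 4219 and 5839.9 in cKO. The Timp genes summed to 2547, 3502 and 3408 in controls and 3232, 3110.3 and 3836 in cKO. The ratio of the Mmp to the Timp sum was 1.60, 1.91 and 1.17 in controls and 1.49, 1.36 and 1.52 in cKO, inside the control range. Without Mmp12 it was 1.29 ± 0.247 and 1.29 ± 0.0339. The Adamts sum was 1307, 1331 and 1367 in controls and 1481, 1523 and 1591 in cKO, so that every cKO animal lay above every control, as it did with GENCODE vM21 lengths, a check chosen after the data were seen. This sum rests mostly on Adamts2, Adamts10 and Adamts1, and none of these sums was tested. Of single genes tested, 9.04% had all cKO values above all controls. A list of 10 stroma and fibroblast genes took 0.980 to 1.46% of control reads and 1.18 to 1.63% of cKO reads. Of these 10 genes limma, edgeR and DESeq2 each called 0. The part of that list in the Adamts sum was not tested.

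Genes around the proteases were taken from 3 lists. Of 22 genes of activation, inhibition and clearance, 20 were tested and 0 passed the limma test in either direction, while 2 had an unadjusted p under 0.05. By DESeq2 1, Spock2, was lower, and by edgeR 0 were. Spock2, a matrix proteoglycan that acts on the activation of membrane-type MMPs, had 428, 241 and 715 normalised reads in controls and 149.6, 47.8 and 40.9 in cKO, with a log2 fold change of -2.64 ± 0.56 (limma adjusted p = 0.0858). The groups did not overlap. DESeq2 gave 8.54e-05 and edgeR 0.153, and leaving out 1 library gave limma adjusted p from 0.0302, without cKO 1, to 0.354. Serpine2, an inhibitor of plasminogen activators, was at 0.39 ± 0.15, Cst3, an inhibitor of cysteine cathepsins, at 0.36 ± 0.18, and Reck, a membrane inhibitor of MMPs, at -0.42 ± 0.27 on the log2 scale. Furin, Plat, Plau and Lrp1 had log2 fold changes between -0.08 and 0.19.

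Of 20 substrates and matrix partners, 18 were tested and 1 fell, where 0.889% of all genes did. Ltbp1, which tethers latent TGF-beta to the matrix, had 2042, 2781 and 1842 normalised reads in controls and 1247, 906 and 994 in cKO. All cKO animals lay below all controls, and the log2 fold change was -1.07 ± 0.20 (limma adjusted p = 0.0446). The call was lost with edgeR (adjusted p = 0.0534) and limma-voom (0.0552), with scaling to total reads (0.0717), and without control 2 (0.0678), cKO 1 (0.0877), cKO 2 (0.241) or cKO 3 (0.243). Versican, the main substrate of the proteoglycan-cleaving ADAMTS enzymes, had 874, 615 and 858 normalised reads of Vcan in controls and 1147, 1372 and 1605 in cKO. Its log2 fold change was 0.82 ± 0.20 (limma adjusted p = 0.104), and DESeq2 gave 0.0128. Bcan, a brain proteoglycan, was at -3.74 ± 0.81 (limma adjusted p 0.0694), Emilin1, an elastic fibre protein, at -0.65 ± 0.15 (0.0947), and Eln, elastin itself, at 0.55 ± 0.22 (0.318). DESeq2 called Bcan (7.23e-05) and Emilin1 (0.00578) lower beside Ltbp1, and the adjusted p of Bcan with edgeR was 0.0545.

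Of 20 other zinc metalloproteinases, 17 were tested and 1 fell. Adam22, a member of the ADAM family without protease activity that is best known from synapses, had 446, 276 and 197 normalised reads in controls and 92.0, 87.8 and 60.8 in cKO. The groups did not overlap, and the log2 fold change was -1.86 ± 0.34 (limma adjusted p = 0.0384). The call was lost with limma-voom (0.0903) and without control 2 (0.0694), cKO 1 (0.111), cKO 2 (0.173) or cKO 3 (0.207). The neuron list summed to 517, 1258 and 7299.5 normalised reads in controls and 508 to 678 in cKO, 2 of its 8 tested genes fell by limma, 0 by edgeR and 3 by DESeq2, and its part in the level of Adam22 was not tested. Adam17, the sheddase of TNF and EGF receptor ligands, had 668, 779 and 496 in controls and 981, 895 and 930.3 in cKO, with a log2 fold change of 0.55 ± 0.19 (limma adjusted p = 0.238). Adam33 was at -0.80 ± 0.31, Adam15 at 0.39 ± 0.21 and Adam10 at -0.31 ± 0.17. Of the 55 genes of the 3 lists that were tested, 4 lay above and 7 below all controls in all cKO animals, which is 20%, beside the 19.6% of all genes tested.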

How the data were processed

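Uterine total RNA was sequenced as 1 library per animal, with all samples processed together, per the labels. The submitters' processing notes name HISAT2, SAMtools, featureCounts and GRCm39. The deposited coordinates equal those of GENCODE vM21 (GRCm38) for 25239 of the 25988 gene identifiers found there, 46 members included, so GRCm38 is given here. The deposited values are a signal, which the authors made from gene counts by division through a size factor for each library: in each 100% of values were whole multiples of 1 step within 0.01 reads, which gave back whole reads, 14584450 to 16579573 per library. The authors' deposited table also holds their log2 fold changes and p-values, printed only where named as theirs.

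The 3 control and 3 cKO libraries were compared with limma (3.58.1, R 4.3.3; trend and robust empirical Bayes) after log2(value + 1), for 16314 genes kept by edgeR 4.0.16 filterByExpr on the whole reads. Fold changes are differences of mean log2(value + 1). The pseudocount makes them smaller for low genes than a smaller one would. As means of logs they were nonetheless larger in size than those of the count models for some genes. Among these were Tcf21, Mmp10, Mmp8, Adamts16, Mmp25, Mmp27 and Adamtsl2. P-values were adjusted by Benjamini-Hochberg over all genes tested, with a threshold of 0.05, and the fit was tested on simulated data. Alternatives were edgeR's quasi-likelihood test, DESeq2 1.42.0 and limma-voom on the reads, pseudocounts of 0.5 and 5, other filters (none, or 10 reads in 3 libraries), TMM and total read scaling, a replicate block, and leaving out each library. Limits for 0 reads take 3 reads and cover counting error only, since PCR reads without molecular identifiers are not independent molecules.

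Members and lists were chosen with earlier results of these data known. Genes named by rule were Tcf21, called members, members whose groups do not overlap, all Timp genes, Mmp2, Mmp3, Mmp7, Mmp9, Mmp11, Mmp14, Adamts1, Adamts5 and Adamts9, the most abundant per kb of each family group, and of each list the called genes and up to 4 others with the smallest p. The remaining members, and Furin, Plat, Plau and Lrp1, were named after their values were seen. Exon overlaps came from GENCODE vM21, near-identical stretches (at least 95% identity over 100 bases) from blastn 2.17.0, and promoter letters from RefSeq GRCm38.p6, with entries for 32 of the 47 members.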

Additional observations from a re-analysis of the deposited data

How the results depend on the processing

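Mmp17 kept its direction and its call under every alternative run. With DESeq2, 285 genes were higher and 584 lower over all genes, and with limma-voom 19 and 82. Without a filter on low values 82 were higher, and with total read scaling 12. Leaving out 1 library gave 1 to 117 higher and 42 to 347 lower genes. Members called higher numbered 1 with DESeq2, and those called lower 2 with DESeq2 and 1 to 2 without 1 library. The members' median log2 fold change was 0.020 without control replicate 1, and 0.020 to 0.27 over all libraries left out in turn. In the list of activation, inhibition and clearance 1 gene was lower with DESeq2 and 0 to 1 without 1 library. Among substrates and matrix partners 1 was higher with DESeq2, and the lower genes numbered 3 with DESeq2, 2 without a filter, 0 with edgeR, limma-voom or total read scaling, and 0 to 2 without 1 library. Among other zinc metalloproteinases 0 were lower with limma-voom, and 0 to 1 were higher and 0 to 2 lower without 1 library. The cause was not tested in any of these. The replicate block gave 0 lower substrates and partners, with adjusted p of 0.00383 for Mmp17, 0.0580 for Adamts8, 0.109 for Timp1 and 0.0588 for Ltbp1 (limma). Same-numbered animals did not deviate together (r across genes 0.00843, -0.176 and 0.0438). With 3 animals per group this cannot decide whether the numbers pair samples.

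The sign turned with edgeR and DESeq2 for Mmp9 (-0.014 and -0.011), Mmp14 (-0.028 and -0.021), Mmp12 (-0.70 with both) and Mmp16 (0.057 and 0.063). Leaving out 1 library turned it for these members, with log2 fold changes of -0.12 to 0.49 for Mmp3, -0.47 to 0.76 for Mmp9, -0.20 to 0.012 for Mmp11, -0.30 to 0.22 for Mmp14, -0.23 to 2.59 for Mmp12, -1.39 to 0.59 for Mmp16, -0.095 to 1.19 for Mmp19, -0.081 to 0.31 for Mmp23, -0.22 to 0.21 for Adamts12, -0.066 to 0.45 for Adamts15, -0.12 to 0.39 for Adamts17, -0.12 to 0.77 for Adamts18, -0.10 to 0.74 for Adamts20, -0.21 to 0.32 for Adamts7, -0.21 to 0.085 for Adamtsl1, -0.17 to 1.05 for Adamtsl2 and -0.44 to 0.098 for Adamtsl4. None of them passed the test, and the cause was not tested. Depth bears on the 7 members with a mean under 20 normalised reads, of which 3 were not tested, and 0 reads allow up to 2.67 to 3.66 normalised reads. With 2 alternatives chosen after the data were seen, GENCODE vM21 lengths for the Adamts sum and the Mmp2 share without Mmp12, the differences of the group means kept their direction.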

Other observations

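Some members differed more among control animals than between the groups. Adamtsl2, which binds the TGF-beta binding protein LTBP1 and whose loss causes a short-stature syndrome, had 608, 111 and 266 normalised reads in controls 1 to 3 and 316, 405 and 358 in cKO 1 to 3. The highest and the lowest of the 6 values were both controls, 5.46-fold apart. Adamtsl3 had 34.1, 107 and 223 in controls and 46.5, 81.9 and 54.1 in cKO, and there too all cKO values lay inside the control range. In control 3, where Adamts3 was lowest, Mme, which encodes the membrane peptidase neprilysin, was at 12.5, against 397 and 510 in controls 1 and 2 and 55.6 to 81.8 in cKO animals. These values were chosen after they were seen and were not tested.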
